A study of Arabidopsis thaliana with 18 samples.

Results

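This account covers 5 genes of flavonol formation, CHIL and the glycosyltransferase genes AT1G06000, UGT78D1, UGT78D2 and UGT78D3, in the aerial region of Arabidopsis thaliana plants after ultraviolet light. The genes were chosen by name, with earlier results of these data known. Their counts and medians beside those of all probe sets are thus a description. Each was read on the 1 probe set that the platform annotation ties to it alone, which makes 5 of the 22746 probe sets tested. AT1G06000 is the locus of UGT89C1, and the files' annotation gives it by its locus name. The other loci were AT5G05270 for CHIL, AT1G30530 for UGT78D1, AT5G17050 for UGT78D2 and AT5G17030 for UGT78D3.

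The study used plants 18 days old of 3 genotypes in the Col-0 background, on 18 arrays with RNA of a single plant on each. WT was Col-0 itself, tt4 was the TRANSPARENT TESTA4 mutant, impaired in making flavonoids, and sng1 was the sinapoylglucose accumulator 1 mutant, impaired in making sinapoyl malate. The solid medium held 1% sucrose, and all plants had 17 days at 22 °C in a cycle of 16 h light and 8 h dark. On day 18 the UV plants were kept for 24 h under ultraviolet light, and the CO plants had continuous light, in which 8 h were additional. Both were harvested 6 h into the bright phase. Each of the 6 groups held 3 plants, their alleles are not named in the labels, and an array is named by its group and replicate, as in WT_UV 1. The additional light is given for the CO plants and is not stated for the UV plants, and the running codes in the sample titles put all UV arrays before all CO arrays. An effect of that order and an effect of the light treatment cannot be told apart.

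Flavonols such as kaempferol and quercetin are ultraviolet-absorbing compounds that plants store in the vacuole as glycosides. TT4 encodes chalcone synthase, the first enzyme of the flavonoid branch, and chalcone isomerase acts next. CHIL is related to chalcone isomerase, has no catalytic activity of its own in flavonoid synthesis, and raises the output of the pathway. UGT78D1, UGT78D2 and UGT78D3 attach rhamnose, glucose and arabinose, respectively, to the 3-hydroxyl group of a flavonol, and UGT89C1 attaches rhamnose to the 7-hydroxyl group. UGT78D2 also glucosylates anthocyanidins.

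Signals of CHIL, AT1G06000, UGT78D2 and UGT78D3 were higher under UV than in CO, and the signal of UGT78D1 was lower. As the mean of the UV effects of the 3 genotypes, with 9 arrays against 9, AT1G06000 was 5.95-fold higher, CHIL 5.13-fold and UGT78D2 2.28-fold. UGT78D3 was 2.18-fold higher with values under 16 set to 16, which is not a bound, since 1 UV value was raised too. UGT78D1 was 1.25-fold lower. All 5 passed an adjusted p of 0.05 in limma, 4 as higher and 1 as lower, where 42.8% of all probe sets passed, 20.9% as higher and 22% as lower. Taken singly, the genotypes gave 4 higher genes and 1 lower in WT, where 24.4% of all probe sets were called (12.5% higher, 11.9% lower). They gave 3 higher and none lower in tt4 (26.7% called, 12.7% higher, 14.1% lower), and 4 higher and none lower in sng1 (23.5% called, 11.9% higher, 11.6% lower). On the log2 scale the 5 genes had a median UV effect of 1.39 (WT), 1.15 (tt4) and 1.23 (sng1), beside a median of 0 over all probe sets in each. No mutant differed from WT in any of the 5 genes after adjustment over all probe sets.

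**Figure D1:**
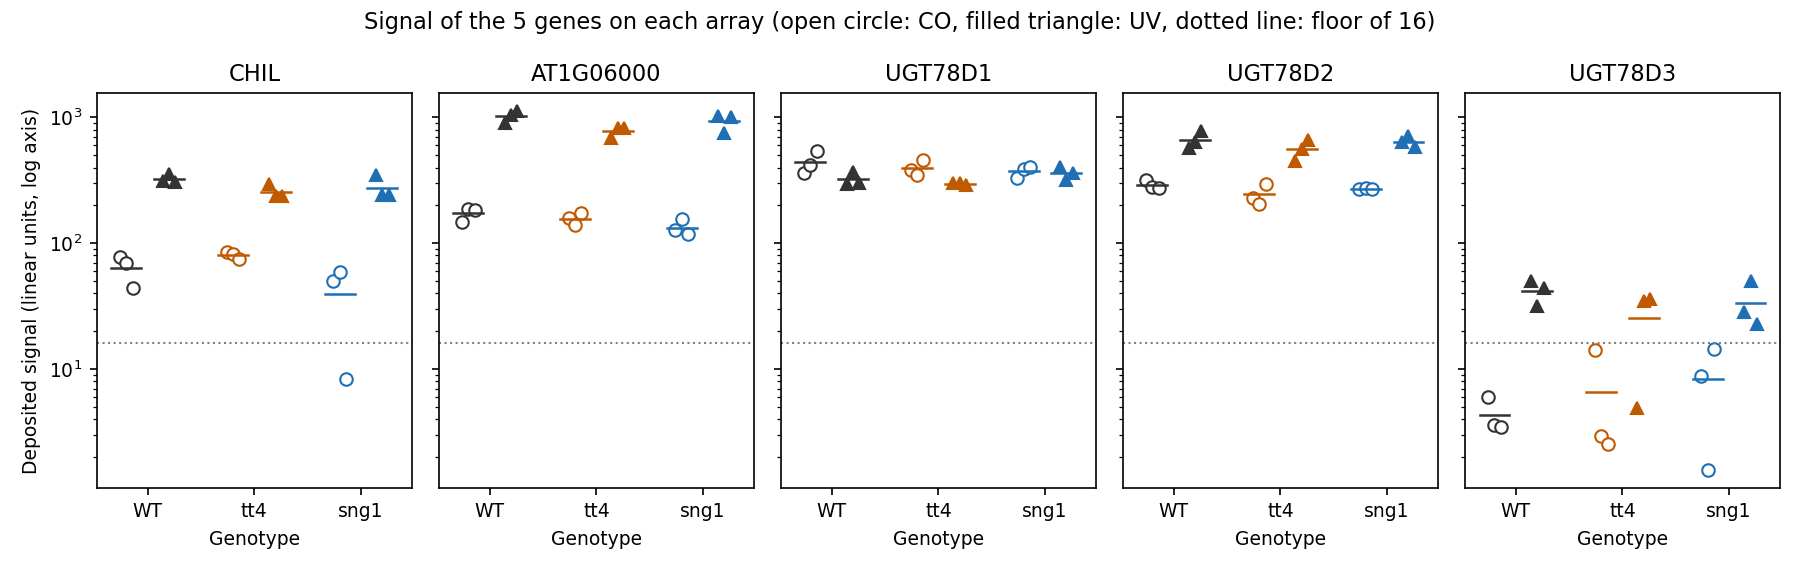
Deposited signal of each gene on each of the 18 arrays (vertical axis, linear units on a log scale) by genotype, with open circles for CO, filled triangles for UV and a bar at the mean signal of each group. Every UV array lies above every CO array for CHIL, AT1G06000 and UGT78D2, as for 7.9% of all probe sets. UGT78D1 overlaps between the lights, and all 9 CO arrays of UGT78D3 lie under the floor of 16.

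Signals below are the deposited linear intensities. Tests used log2 values after quantile normalization, with values under 16 set to that floor. Each effect is a log2 difference, UV minus CO, with its standard error (SE) and 95% interval from limma, and each p-value is adjusted over all probe sets. Each array carried the RNA of 1 plant, so the tests measure the spread between single plants. RNA came from the whole aerial region, in which fewer cells of a type and less RNA per cell cannot be told apart. Levels are compared between groups for 1 gene at a time and not between genes, since probe sets differ in how strongly they bind.

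CHIL, the pathway's noncatalytic helper protein, rose in all 3 genotypes. In WT its signals under UV were 315, 355 and 309, against 77.1, 69.6 and 44.3 in CO. In tt4 they were 295, 237 and 236 under UV and 85.6, 82.3 and 75.6 in CO. In sng1 they were 348, 241 and 244 under UV and 50.2, 59.6 and 8.42 in CO. The lowest UV array stood well above the highest CO array, so the lights did not overlap in any genotype or over the whole set, as was true of 7.9% of all probe sets in the upward direction. The array sng1_CO 3 stood apart at 8.42, under the floor, and was the only CHIL value there. WT had a UV effect of 2.50 (adjusted p 0.000459), tt4 one of 1.62 (adjusted p 0.0056) and sng1 one of 2.96 (adjusted p 0.000155), each with an SE of 0.37 from limma. The standard deviation (SD) of the log2 values was 0.99 in sng1_CO and from 0.07 to 0.42 in the other groups. The array sng1_CO 3 thus widens every CHIL interval, also in comparisons that leave sng1 out. Without sng1_CO 3 the sng1 effect was 2.38, with an adjusted p of 5.71e-05. As the mean of the genotypes the effect was 2.36 ± 0.21 (SE), with an interval from 1.90 to 2.82 and an adjusted p of 1.79e-06 in limma. Only 126 probe sets had a larger mean rise.

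AT1G06000, the locus of the flavonol 7-O-rhamnosyltransferase UGT89C1, rose in all 3 genotypes with the narrowest errors relative to its size. Under UV the WT arrays read 899, 1044 and 1117, and in CO they read 147, 188 and 183. The tt4 arrays read 687, 829 and 828 under UV, against 159, 139 and 174 in CO. The sng1 arrays read 1025, 756 and 1012 under UV, against 127, 155 and 118 in CO. The lowest of the 9 UV values, 687 on tt4_UV 1, was more than 3 times the highest CO value, 188 on WT_CO 2. Of all probe sets, 7.9% had every UV array above every CO array. Effects were 2.61 in WT (adjusted p 1.67e-06), 2.27 in tt4 (adjusted p 4.63e-06) and 2.85 in sng1 (adjusted p 7.92e-07), each with an SE of 0.17 from limma. The mean effect was 2.57 ± 0.10 (SE), with an interval from 2.37 to 2.78 and an adjusted p of 2.43e-09 in limma. In that comparison 93 probe sets had a larger rise, and 10 had a smaller adjusted p.

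UGT78D2, the flavonoid 3-O-glucosyltransferase, rose in all 3 genotypes. Under UV its WT signals were 573, 643 and 779, beside 318, 282 and 275 in CO. For tt4 they were 448, 566 and 663 under UV and 229, 206 and 299 in CO. For sng1 they were 634, 713 and 582 under UV and 270.6, 273.5 and 270.2 in CO. All 9 UV values, from 448 upward, lay above all 9 CO values, which reached 318, as was true of 7.9% of all probe sets. The 3 sng1_CO plants were almost equal to each other, while the tt4 plants spread the most in both lights. The WT effect was 1.18 (adjusted p 0.000432), the tt4 effect 1.15 (adjusted p 0.0004) and the sng1 effect 1.23 (adjusted p 0.000311), each with an SE of 0.17 from limma. Averaged over genotypes it was 1.19 ± 0.10 (SE), from 0.97 to 1.40 within its interval, with an adjusted p of 9.68e-07 in limma. A larger mean rise was found for 647 probe sets.

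UGT78D3, the flavonol 3-O-arabinosyltransferase, was dim on every array. Under UV its signals were 49.8, 31.8 and 44.3 in WT, 4.90, 34.9 and 36.2 in tt4, and 28.6, 49.7 and 22.9 in sng1. In CO they were 6.05, 3.58 and 3.45 in WT, 14.3, 2.92 and 2.53 in tt4, and 8.76, 1.58 and 14.5 in sng1. All 9 CO values lay under the floor of 16, and 8 of the 9 UV values lay above it. The exception was tt4_UV 1 at 4.90, which made the lights overlap in tt4. In WT and sng1 all 3 UV arrays lay above all 3 CO arrays, as did 17.5% and 20.3% of all probe sets there, beside 16.1% in tt4. A fold against CO is thus a lower bound in these genotypes, at least 2.62-fold in WT and at least 2.18-fold in sng1. In tt4 and in the mean of genotypes no bound is given, since tt4_UV 1 was raised to the floor as well. On the floored log2 scale WT had an effect of 1.39 (adjusted p 0.00674), tt4 one of 0.85 (adjusted p 0.0662, not called) and sng1 one of 1.12 (adjusted p 0.0213), each with an SE of 0.32 from limma. The SD was 0.31 in WT_UV, 0.74 in tt4_UV and 0.57 in sng1_UV, and 0 in each CO group because of the floor. The CO groups thus lower the pooled SE, and the intervals and p-values of UGT78D3 are narrower than the UV plants alone would give. Without tt4_UV 1 the tt4 effect was 1.28, with an adjusted p of 0.00318. The mean effect was 1.12 ± 0.18 (SE), with an interval from 0.72 to 1.52 and an adjusted p of 0.000233 in limma. With a floor of 64, above every UGT78D3 value, the effect was 0 in each genotype. In sng1 the call was lost without any single CO array, with adjusted p-values of 0.0538, 0.0586 and 0.0556, and without sng1_UV 2, with an effect of 0.81 and an adjusted p of 0.0961.

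UGT78D1, the flavonol 3-O-rhamnosyltransferase, was the only one of the 4 glycosyltransferase genes with a lower signal under UV. In WT, UV arrays gave 295, 371 and 299, and CO arrays gave 360, 416 and 546. In tt4, UV arrays gave 299.7, 301.4 and 291.5, and CO arrays gave 381, 348 and 459. In sng1, UV arrays gave 401, 318 and 360, and CO arrays gave 328, 388 and 406. All UV values lay below all CO values in tt4, as was true of 17.7% of probe sets there, while WT overlapped through WT_UV 2 and sng1 overlapped widely. WT had an effect of -0.46 (adjusted p 0.0497), tt4 one of -0.43 (adjusted p 0.0578) and sng1 one of -0.06 (adjusted p 0.903), each with an SE of 0.16 from limma. The WT value lay close to the threshold and lost its call in 12 of 15 alternatives. Its adjusted p was 0.131 without WT_UV 1, 0.150 without WT_UV 3, 0.0870 without WT_CO 2 and 0.186 without WT_CO 3. Without tt4_CO 2 the tt4 effect was -0.54, with an adjusted p of 0.0386. In sng1 the sign of the estimate turned, to 0.02, with arrays centred on their medians and without sng1_UV 2. Over the 3 genotypes the mean effect was -0.32 ± 0.09 (SE), with an interval from -0.51 to -0.12 and an adjusted p of 0.0113 in limma. That mean stayed called in each of 26 alternatives, with adjusted p-values from 0.0046 to 0.0394. The sng1 effect differed from that of WT by 0.40, with an interval from -0.08 to 0.88 and an adjusted p of 1 in limma, so a difference between the genotypes was not shown.

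**Figure D2:**
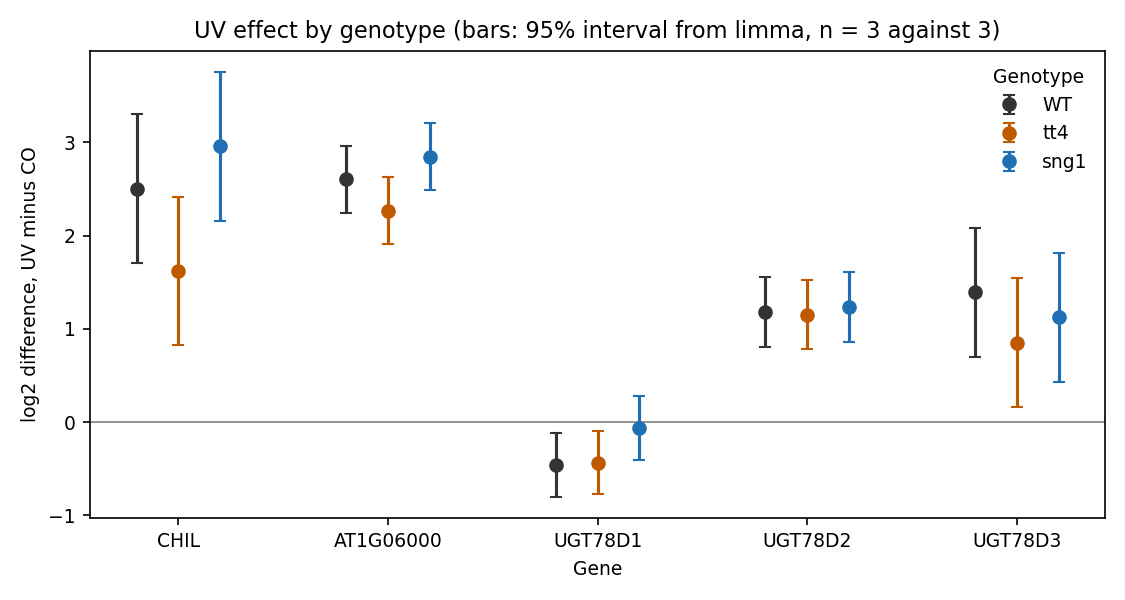
UV effect of each gene in each genotype as a log2 difference, UV minus CO (vertical axis), with bars for the 95% interval from limma and 3 arrays against 3. AT1G06000 and CHIL lie highest, from 1.62 to 2.96, UGT78D2 lies between 1.15 and 1.23, and UGT78D1 lies between -0.46 and -0.06.

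The order of the group means followed the light for all 5 genes, with the UV groups above the CO groups for 4 and below them for UGT78D1. For CHIL it ran, on the log2 scale, from 8.34 in WT_UV over 8.10 in sng1_UV and 7.99 in tt4_UV to 6.37 in tt4_CO, 5.84 in WT_CO and 5.15 in sng1_CO. The largest step between neighbours lay between the UV and CO groups, and neighbours within a light were not called different. AT1G06000 ran from 9.97 in WT_UV over 9.84 in sng1_UV and 9.59 in tt4_UV to 7.36 in WT_CO, 7.32 in tt4_CO and 6.99 in sng1_CO. For UGT78D2 the order was 9.34, 9.31 and 9.09 in WT_UV, sng1_UV and tt4_UV, then 8.16, 8.07 and 7.94 in WT_CO, sng1_CO and tt4_CO. UGT78D3 ran 5.39, 5.12 and 4.85 in the same UV order, with all CO groups at the floor of 4. No neighbouring pair of UV groups was called different in these 4 genes, and leaving out 1 array turned a pair in each. In sng1 minus WT, AT1G06000 turned to 0.02 without sng1_UV 2 and UGT78D2 to 0.08 without WT_UV 3. In tt4 minus sng1, CHIL turned to 0.06 without sng1_UV 1 and UGT78D3 to 0.15 without tt4_UV 1. UGT78D1 ran from 8.77 in WT_CO over 8.65 in tt4_CO and 8.54 in sng1_CO to 8.48 in sng1_UV, 8.31 in WT_UV and 8.21 in tt4_UV. Its step between the lights was the smallest in that order, so the means of UGT78D1 do not form separate sets by light.

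The genotypes were compared for these genes, as tt4 is impaired in making flavonoids and sng1 in making sinapoyl malate. A missing call does not show equal levels, since some of the intervals given below are wide. In 12 comparisons between genotypes, with 60 values for the 5 genes, none was called. The UGT78D3 values in CO were fixed at 0 by the floor and could not be called. Its values over both lights and for the UV effects rest on its UV arrays alone. Over all probe sets these comparisons called between 0 and 11 probe sets each, from 0% to 0.0484%. Unadjusted p-values under 0.05 were found for 3.02% to 6.44% of all probe sets, depending on the comparison, and for 5 of the 60 values of the genes. Several comparisons share arrays, so their values do not add independent weight.

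In tt4 against WT under UV, 0.0132% of probe sets were called and none of the 5 genes. AT1G06000 was at -0.38, with an interval from -0.74 to -0.02 and an unadjusted p of 0.0395 that became 0.982 after adjustment in limma. CHIL was at -0.34 (interval from -1.14 to 0.45), UGT78D1 at -0.10 (from -0.44 to 0.24), UGT78D2 at -0.25 (from -0.62 to 0.12) and UGT78D3 at -0.54 (from -1.23 to 0.15). The intervals of these last 4 genes held 0. Their widths come from the spread pooled over all groups. For CHIL it includes sng1_CO with an SD of 0.99, beside 0.12 in WT_UV and 0.17 in tt4_UV, which widens the interval. For UGT78D3 it includes the floored CO groups with an SD of 0, which narrows the interval. Without tt4_UV 1 the UGT78D3 value was -0.11, and without WT_UV 2 the UGT78D1 value was 0.01. In CO (0.022% of probe sets called) the tt4 differences were 0.54 for CHIL (from -0.26 to 1.33), -0.04 for AT1G06000 (from -0.40 to 0.32), -0.12 for UGT78D1 (from -0.46 to 0.22) and -0.22 for UGT78D2 (from -0.60 to 0.15). UGT78D3 was at the floor in both.

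For sng1 against WT under UV (0.022% of probe sets called), the differences were -0.24 for CHIL (from -1.04 to 0.56), -0.13 for AT1G06000 (from -0.49 to 0.23), 0.17 for UGT78D1 (from -0.17 to 0.51), -0.04 for UGT78D2 (from -0.41 to 0.34) and -0.27 for UGT78D3 (from -0.96 to 0.42). Each interval held 0. In CO (0.00879% called), CHIL was at -0.69 (from -1.49 to 0.11), and AT1G06000 was at -0.37 (from -0.73 to -0.01), with an unadjusted p of 0.044 and an adjusted p of 0.971 in limma. The CHIL value was -0.12 without sng1_CO 3. UGT78D1 was at -0.23 (from -0.57 to 0.11) and UGT78D2 at -0.09 (from -0.46 to 0.28).

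Averaged over both lights, AT1G06000 was at -0.21 in tt4 (from -0.47 to 0.04) and at -0.25 in sng1 (from -0.50 to 0.00), each against WT, with 0.0176% of probe sets called in either comparison. CHIL was at 0.10 in tt4 (from -0.47 to 0.66) and at -0.46 in sng1 (from -1.03 to 0.10), while the sng1 value was -0.18 without sng1_CO 3 and the tt4 value -0.02 without WT_CO 3. UGT78D2 was at -0.24 in tt4 (from -0.50 to 0.02) and at -0.06 in sng1 (from -0.33 to 0.20), so that its interval for tt4 reached just above 0. The mutants were also set against each other, with 0.0264% of probe sets called under UV and 0.0396% over both lights. Under UV tt4 minus sng1 was -0.11 for CHIL (from -0.90 to 0.69), -0.25 for AT1G06000 (from -0.61 to 0.11), -0.27 for UGT78D1 (from -0.61 to 0.07), -0.22 for UGT78D2 (from -0.59 to 0.15) and -0.27 for UGT78D3 (from -0.96 to 0.42).

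**Figure D3:**
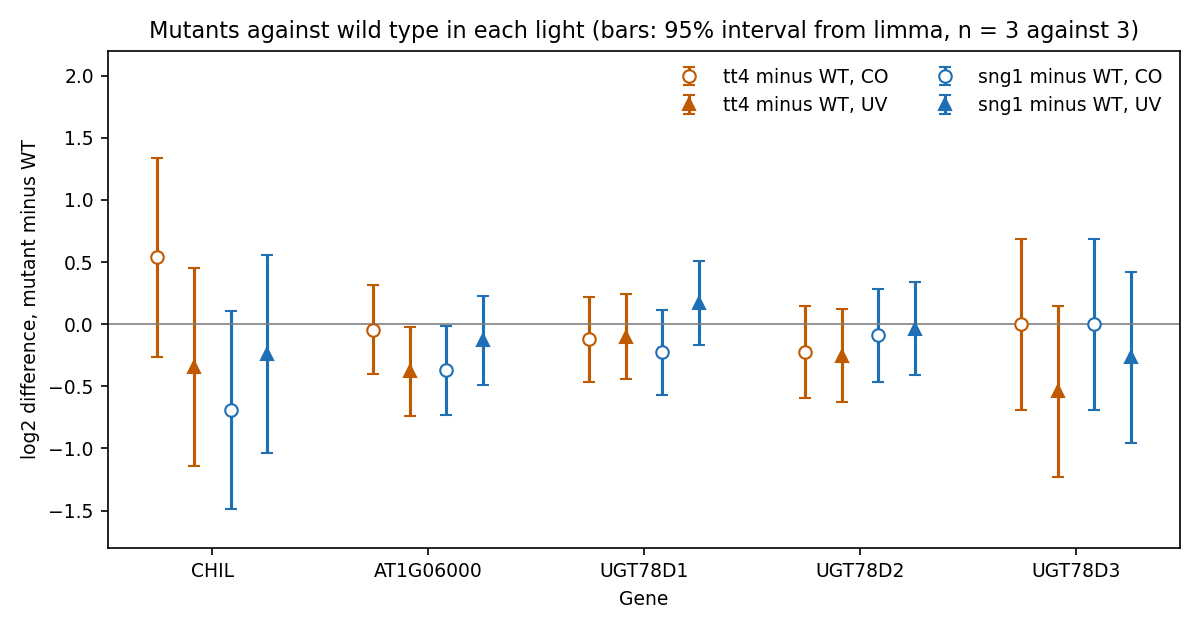
Difference of each mutant from WT in each light as a log2 value (vertical axis, mutant minus WT), with bars for the 95% interval from limma and 3 arrays against 3. All but 2 intervals reach across 0, and the exceptions are AT1G06000 in tt4 under UV (-0.38) and in sng1 in CO (-0.37). The UGT78D3 points in CO are fixed at 0 by the floor, and their bars come from the spread pooled over all groups.

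The UV effects themselves were also compared between genotypes. The effect of CHIL in tt4 was smaller than in WT by an estimate of -0.88 (from -2.01 to 0.25, 0.0044% of probe sets called in this comparison), and in sng1 it differed from WT by 0.45 (from -0.67 to 1.58). The sign of the latter turned without sng1_CO 3, to -0.12, and with a floor of 64, to -0.18. In the comparison of sng1 with WT limma called 0 probe sets, with 688 at an unadjusted p under 0.05. Between tt4 and sng1 the CHIL effect differed by -1.34 ± 0.52 (SE), with an interval from -2.46 to -0.21, an unadjusted p of 0.0239 and an adjusted p of 0.906 in limma. Without sng1_CO 3 this difference was -0.76. The AT1G06000 effect differed between tt4 and sng1 by -0.58 ± 0.23 (SE), with an interval from -1.09 to -0.07, an unadjusted p of 0.0286 and an adjusted p of 0.906 in limma. For UGT78D2 the tt4 and sng1 effects differed from that of WT by -0.03 (from -0.55 to 0.50) and 0.05 (from -0.47 to 0.58). In CO, CHIL was higher in tt4 than in sng1 by an estimate of 1.23 (from 0.43 to 2.03), with an unadjusted p of 0.00551 and an adjusted p of 0.506 in limma. This estimate was 0.66 without sng1_CO 3, and 0.0484% of probe sets were called there.

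The genes were set against each other plant by plant within each light, 9 plants in each, because the lights form separate clusters. Of 16 relations, 10 under UV and 6 in CO, none had an adjusted p under 0.05, by Pearson's r or by Spearman's rho. UGT78D2 and UGT78D3 had the highest r under UV, 0.757, with an exact permutation p of 0.0212 and an adjusted p of 0.339. Their rho was 0.567 (exact permutation p 0.121), and without the 2 plants farthest from the median of UGT78D2 r was 0.336. Leaving out the extremes of 1 gene narrows its range, so this drop does not show that the relation rests on those plants. With the means of the genotypes removed r was 0.713. AT1G06000 and UGT78D1 in CO had a rho of 0.7 (exact permutation p 0.0433, adjusted p 0.608) and an r of 0.637 (exact permutation p 0.0636, adjusted p 0.415), or 0.567 with genotype means removed. CHIL and AT1G06000 had an r of 0.482 under UV (exact permutation p 0.185, rho 0.633) and of 0.599 in CO (exact permutation p 0.0778, rho 0.45), with an adjusted p of 0.483 and 0.415. With genotype means removed these r were 0.109 and 0.374, and the permutations did not keep plants within their genotype.

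The genes whose values over the 18 arrays were most like those of each member were found among 10212 named probe sets. These correlations pool both lights, so the difference between UV and CO enters them, and they are given as a description. For CHIL they were nad1 (r 0.944), AT3G56290 (r 0.940) and AT1G04810 (r 0.940). For AT1G06000 they were AT5G51740 (r 0.982), AT5G23540 (r 0.982) and AT4G27680 (r 0.981). UGT78D2 was closest to AT5G62440 (r 0.980), CYTC-1 (r 0.976) and AT3G15180 (r 0.972), and UGT78D3 to AT2G03430 (r 0.941), ELC (r 0.939) and AT2G44710 (r 0.927). UGT78D1 had the lowest values, with NAI2 (r 0.816), petB (r 0.813) and AT2G42310 (r 0.812).

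The glycosyltransferases belong to the large family of UDP-dependent enzymes that transfer sugars to small molecules. Among 44 other family members named by their UGT symbols, 18 rose, 6 fell and 20 were not called in the mean of the genotypes, that is 40.9% higher and 13.6% lower, with a median effect of 0.13. Over all probe sets 20.9% were higher and 22% lower. Among those not called, UGT71B8, UGT76E2, UGT73C2, UGT84B1, UGT71C1, UGT76E1 and UGT72E3 lay at the floor on 13 to 17 of 18 arrays, and UGT84B2 on 10. For these genes a missing call does not show an unchanged level. In the order of all 48 genes by that effect, on values floored at 16, AT1G06000 came at position 2, UGT78D2 at 10 and UGT78D1 at 43. UGT78D3 has no measured position, since its effect depends on the floor, and other genes with values at the floor make the positions approximate. Above AT1G06000 stood UGT84A1, whose product glucosylates hydroxycinnamic acids such as sinapic acid. All 9 CO values lay at the floor, and it was at least 7.49-fold higher under UV (adjusted p 9.45e-09 in limma). Its CO arrays thus added no spread to that test. UGT76D1, which glycosylates dihydroxybenzoic acids, rose by 1.77 ± 0.12 (SE, adjusted p 1.49e-07) and UGT73B4 by 1.85 ± 0.17 (SE, adjusted p 1.90e-06). UGT72E1, which glucosylates monolignol-related phenylpropanoids, fell by 1.06 ± 0.09 (SE, adjusted p 1.33e-06).

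**Figure D4:**
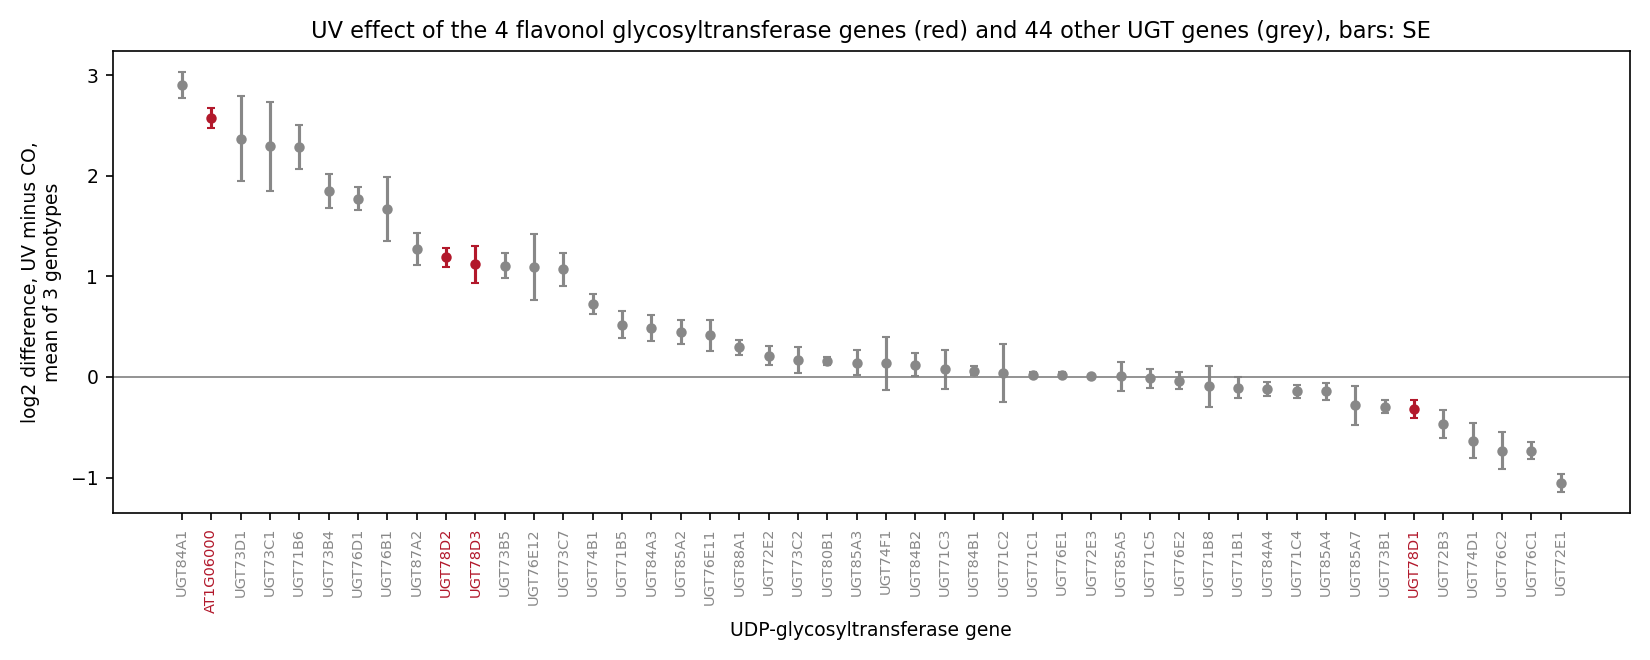
UV effect of the 4 flavonol glycosyltransferase genes (red) and 44 other UGT genes (grey) as a log2 difference, UV minus CO, mean of 3 genotypes (vertical axis), in descending order, with bars for the SE from limma. AT1G06000 stands near the top at 2.57, UGT78D2 lies at 1.19, the point of UGT78D3 at 1.12 depends on the floor, and UGT78D1 lies at -0.32 near the lower end.

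UGT78D2 and UGT78D3 lie close together, separated in the order of loci by AT5G17040, which was added here for that position and lies outside the rule for named genes. Its signals under UV ran from 7.81 to 53.7 with a median of 29.8, and in CO from 2.26 to 22.5 with a median of 6.12. It lay at the floor on 2 of 9 UV arrays and 8 of 9 CO arrays, so the lights overlapped. WT gave a UV effect of 0.72 (adjusted p 0.172), tt4 one of 1.35 (adjusted p 0.0129) and sng1 one of 0.49 (adjusted p 0.394), and it was 0.85 ± 0.21 (SE) as the mean of genotypes (adjusted p 0.00405 in limma). With a floor of 64 it was 0. In WT it was called with a floor of 4, at 2.27 (adjusted p 0.0174), and without WT_UV 3, at 1.08 (adjusted p 0.0448). Genes of the UGT78D group are similar in sequence, and how far their probes bind each other's transcripts was not tested.

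Other genes of the pathway were read from gene lists. The lists of early flavonoid enzymes (8 genes), flavonoid regulators (17), enzymes of sugar donors (13) and the entry to phenylpropanoids (10) were not analysed here. Of 14 genes of the anthocyanin and proanthocyanidin branch, 5 were analysed. None of the 5 was called in a single genotype, and 1 was called higher in the mean of genotypes. That gene was UGT75C1, the anthocyanin 5-O-glucosyltransferase, which rose by 1.00 ± 0.29 (SE, adjusted p 0.0123 in limma). DFR, the enzyme that commits dihydroflavonols to anthocyanins, was at 0.28 ± 0.30 (SE, adjusted p 0.504). UGT79B1, an anthocyanin xylosyltransferase, was at 0.22 ± 0.40 (SE, adjusted p 0.728 in limma) and 5MAT, an anthocyanin malonyltransferase, at 0.09 (adjusted p 0.840 in limma). BAN, the anthocyanidin reductase, was at 0.06 ± 0.06 (SE, adjusted p 0.474 in limma). It lay at the floor on 17 of 18 arrays, so its value does not show whether it responded. The list's median, with BAN counted, was 0.22, beside 1.19 for the 5 flavonol genes. Of 13 genes of light and ultraviolet signalling, 1 was analysed here, HYH. It encodes a close homologue of the light-signalling factor HY5, and it rose by 1.69 ± 0.21 (SE, adjusted p 2.55e-05 in limma) in the mean, with effects of 1.92 for WT, 1.15 for tt4 and 1.99 for sng1, all called.

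Across the series, log2 values of arrays of 1 group correlated at 0.972 to 0.991. Of 10 leaf mesophyll markers, which mark the labelled tissue, 5 were measured. In the mean of genotypes 4 fell under UV and LHCB4.2 was not called, and their summed signal ran from 33053 to 42534 under UV and from 47528 to 58168 in CO. Of 12 root markers, 3 were measured, and their sum ran from 880 to 4099 under UV and from 3485 to 6152 in CO. Most of that sum was PYK10, with a mean log2 value of 10.95 under UV and 12.15 in CO. The means were 4.72 and 4.59 for EXPA7, and 4.22 and 4.32 for EXPA18. PYK10 fell by 1.19 ± 0.24 (SE, adjusted p 0.00122 in limma), EXPA7 was at the floor on 5 arrays and EXPA18 on 11. The 3′ to 5′ signal ratio of the RNA controls differed between UV and CO, on the log2 scale, by 0.08 and -0.16 for the 2 GAPDH sets and by 0.21 and 0.79 for the 2 actin sets. The part of these differences in the UV effects of the 5 genes was not tested. The 8 floral markers were not analysed here, and of 9 epidermis markers 1 was, FDH, with a UV effect of 0.07 in the mean.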

How the data were processed

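Biotin-labelled cRNA from 10 µg of total RNA of 1 plant was hybridized to each array, per the labels' protocols. The authors' deposited values were linear intensities, 1 per probe set, with a mean of 500 on each array after trimming 2% of probe sets at each end (read from the values). Neither labels nor headers name the software, the background method or a genome build (not given in the sources used here), and no coordinates are printed. Of 22810 probe sets, 64 controls were removed, and 13513 of the rest had 1 annotated gene, 503 had several and 8730 were not listed. Array medians ran from 163 to 185. The number of arrays limits the precision.

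Values were quantile normalized, floored at 16 and put on the log2 scale (limma 3.58.1, R 4.3.3). A model with the 6 groups and 12 residual degrees of freedom gave 16 comparisons, with Benjamini-Hochberg adjustment over 22746 probe sets and a threshold of 0.05. With 3 arrays against 3, an exact permutation test of 1 gene could not reach that threshold. The fit was checked on simulated data. Genes with the most similar values were sought among named probe sets at the floor on at most 6 arrays, 3 for each member. From each list up to 4 measured genes were named, by the smallest adjusted p of the mean UV effect, and others named were chosen after their values were seen. Members and lists were chosen with earlier results of these data known. Protein and promoter sequences were not analysed here. Alternatives were other scalings, floors, a filter on dim probe sets, separate fits, array weights, another variance prior, the replicate number as a block, and each array left out in turn.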

Additional observations from a re-analysis of the deposited data

How the results depend on the processing

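Of 355 recomputed UV effects of the 5 genes, 329 kept direction and call, 21 lost the call, 3 gained it and 2 turned sign without a call (UGT78D1 in sng1). The mean UV effects of CHIL, AT1G06000, UGT78D1 and UGT78D2 stayed called in all 26 alternatives, and that of UGT78D3 in all but the floor of 64. With that floor the number of called genes in WT was 3 in place of 5 (22.2% of all probe sets called), since every UGT78D3 value lay under it and UGT78D1 had an adjusted p of 0.0569. The UGT78D1 call in WT was also lost with values as deposited (0.0530), median-centred arrays (0.113), a floor of 4 (0.0558), WT arrays alone (0.203), array weights (0.0927) and an intensity trend with a robust prior (0.0512). UGT78D3 in sng1 lost its call with a floor of 4 (0.0574) and with sng1 arrays alone (0.0611), and in tt4 it was called with the filter on dim probe sets (0.0480). These are adjusted p-values from limma, and the cause was not tested. Leaving out single arrays gave 4 to 5 called genes in WT (17.7% to 23.4% of all probe sets called), 3 to 4 in tt4 (21.1% to 25.3%), 3 to 4 in sng1 (17.1% to 19.2%) and 5 in the mean (40.5% to 42.9%). Fits of 1 genotype alone called 2929 probe sets in WT in place of 5540, and 3023 in tt4 in place of 6080, while the sng1 arrays alone called 5800 in place of 5350. None of 1080 recomputed genotype values was called, and 48 turned sign. None of the 16 relations passed under the other scalings and floors.

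Plants with the same replicate number did not deviate together (mean r -0.0126 over 45 pairs, 6 of 18 arrays closest to their own number), so the numbers were not taken as pairing. With the replicate block, 4 genes were called in WT (23.8% of all probe sets), 3 in tt4 (26.2%), 4 in sng1 (23%) and 5 in the mean (42.6%). The UGT78D1 value in WT was then -0.46 (adjusted p 0.0525 in limma). The block moved no other call of the 5 genes. For the mean UV effect the fit to the groups of the comparison is the reported fit. Values at the floor have no order, which limits what UGT78D3 and AT5G17040 can show.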
